A study of Mus musculus with 8 samples.

Results

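Acyl-CoA synthetases were followed through the response of 4 mouse epithelial cell lines to TGF-β1 and EGF. The set was 8 genes: Acsbg1, Acsl1, Acsl3, Acsl4, Acsl5, Acss1, Acss2 and Acsf2. A gene's members were all probe sets that the platform annotation maps to its symbol alone. This gave 15 probe sets for 7 of the 8 genes, of 45037 analysed probe sets for 18193 genes. No probe set carried the symbol Acsl1 alone in the annotation used here, so Acsl1 was not analysed here. The set was chosen by the large increase of Acsbg1 on these arrays, and the other members were selected with their levels and changes in view. All values of the members were thus known when they were chosen, and their changes between stimulated and resting cells are given as a description. Differences in the change between lines are given with the interval of a fit over all genes, as a measure of size and not as independent evidence.

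The data were 8 single-colour arrays, 1 of stimulated and 1 of resting cells from each line. EpH4 and NMuMG come from mammary gland, and mProx and MCT from kidney tubule. Stimulated cells had received 3 ng/mL each of rhTGF-b1 and rhEGF over 24 h, and resting cells had neither. Both had spent the preceding 24 h in K-1 medium with 5 µg/mL insulin and 5 µg/mL transferrin, so resting cells were not free of growth signals. The label of EpH4 adds EMT resistance, where EMT is the epithelial-mesenchymal transition, the turn of epithelial cells towards a motile, fibroblast-like state, and the series compared induced with non-induced cells. The labels do not give the number of cultures pooled for an array, so the cell line is the replicate, each line is 1 model with its own history, and the small number of arrays limits the precision of every value.

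Acyl-CoA synthetases join a fatty acid to coenzyme A at the cost of ATP, a step that a fatty acid needs before it can be burned, stored, built into membranes or attached to proteins. The members differ in the chain length they prefer and in their place in the cell. The Acsl enzymes handle long chains, Acsbg1 (the bubblegum family, named after a Drosophila mutant) long and very long chains, Acsf2 is a mitochondrial enzyme for medium chains, and Acss1 and Acss2 activate acetate in mitochondria and in the cytosol and nucleus. Acsbg1 is best known from brain, adrenal gland and gonads.

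The sequences just upstream of 3 members are shown because these genes stand for the 3 patterns described here: the largest mean change of the set (Acsbg1), a smaller increase in each line (Acsl3) and a small decrease in each line (Acsl5). Each is the 250 bases before the transcription start in RefSeq (GRCm38.p6), read 5′ to 3′ on the gene's strand, with CpG dinucleotides in capitals. They lie at chr9:54661886-54662135 on the minus strand for Acsbg1, at chr1:78657575-78657824 on the plus strand for Acsl3 and at chr19:55253119-55253368 on the plus strand for Acsl5.
Acsbg1: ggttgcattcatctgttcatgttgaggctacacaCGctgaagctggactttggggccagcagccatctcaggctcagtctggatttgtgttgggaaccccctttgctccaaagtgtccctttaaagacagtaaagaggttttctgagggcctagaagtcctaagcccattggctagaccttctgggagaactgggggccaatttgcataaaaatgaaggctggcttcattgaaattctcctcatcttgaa
Acsl3: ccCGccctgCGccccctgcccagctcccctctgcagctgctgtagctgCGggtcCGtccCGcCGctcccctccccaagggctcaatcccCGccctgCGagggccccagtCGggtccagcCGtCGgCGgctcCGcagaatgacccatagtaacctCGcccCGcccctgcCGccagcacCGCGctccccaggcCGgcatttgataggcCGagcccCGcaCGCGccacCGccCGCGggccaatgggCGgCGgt
Acsl5: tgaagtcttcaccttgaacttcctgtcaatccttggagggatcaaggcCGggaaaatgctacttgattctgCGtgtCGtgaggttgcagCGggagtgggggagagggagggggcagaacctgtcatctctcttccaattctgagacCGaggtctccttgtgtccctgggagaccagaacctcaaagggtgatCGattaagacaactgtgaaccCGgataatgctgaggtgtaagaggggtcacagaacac

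The Acsbg1 sequence holds 1 CpG, and 18.8% of the 32851 promoters in the table hold as few. The Acsl5 sequence holds 7 and the Acsl3 sequence 28, against a median of 6 over all promoters and quartiles of 2 and 16. Of the other members with a probe set, Acsl4 has 25 CpG in the same window, Acsf2 22, Acss1 15 and Acss2 13, so Acsbg1 has the fewest among the 7. Both strands were searched for 5 short motifs. TATAAA, found in 12.4% of all promoters, and TGANTCA (the AP-1 motif), found in 6.75%, had no match in any of the member windows. CCAAT, found in 33.8%, has 2 matches in Acsbg1, 83 and 53 bases before the start, and 1 each in Acsl3 and Acsl5. CAGAC, the short SMAD-binding letters, occurs once in Acsbg1, 174 bases before the start, and in 42.2% of all promoters. GGGCGG, found in 32.7%, has 5 matches in Acsl3 and none in Acsbg1 or Acsl5. A match is a run of letters and not a measured binding site.

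Values below are log2 of the deposited signal plus 10.6, made comparable between arrays by quantile normalization, and are called log2 levels. A change is the stimulated minus the resting log2 level of 1 line. Of the 18193 genes, 12640 had a mean log2 level of at least 5.27, the 40th percentile of all probe sets, and were tested. A level under 5.27 on an array is called dim. Of the 7 genes with a probe set, 6 passed, and Acss1 did not. A gene with several probe sets is represented by the one with the highest mean level. Levels are compared between arrays for a probe set, never between probe sets. A lower array signal cannot be divided into fewer cells of a type and less RNA per cell.

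Acsbg1 was higher in stimulated than in resting cells of every line, by 3.24 ± 0.78 on the log2 scale (SD, n = 4), a mean fold of 9.42. Its deposited signals were 302.8 for EpH4, 114.9 for mProx, 276.8 for MCT and 220.5 for NMuMG after stimulation, against 56.6 for EpH4, 3.4 for mProx, 6.8 for MCT and 14.8 for NMuMG at rest. The stimulated log2 levels were 8.19 for EpH4, 6.87 for mProx, 8.41 for MCT and 8.04 for NMuMG, and the resting levels 5.85 for EpH4, 3.76 for mProx, 4.17 for MCT and 4.81 for NMuMG. All 4 stimulated arrays thus lay above all 4 resting arrays, and at rest only EpH4 was above the filter level.

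The changes of Acsbg1 were 2.34 for EpH4, 3.12 for mProx, 4.25 for MCT and 3.24 for NMuMG. In 3 lines the resting value is dim, so the exact size of those changes depends on the offset added before the logarithm. The mean change was 4.11 with an offset of 1 and 2.06 with an offset of 50. With every dim level set to the filter level, the changes were 2.34 for EpH4, 1.61 for mProx, 3.15 for MCT and 2.78 for NMuMG. Acsbg1 remained over 2-fold higher in each line by that count too, and it was the only member to reach 2-fold in each of the 4 lines, as did 8 of the 12640 tested genes (0.0633%). In each of the 3 lines without EpH4, Acsbg1 was again the 1 member at least 2-fold higher, beside 0.166% of tested genes. Stimulated arrays all above resting arrays were also found for Acsbg1 alone among the 6 tested members, and for 0.506% of all tested genes, while 0 members and 0.253% of all genes had all stimulated arrays below all resting ones. Among the 12640 genes Acsbg1 ranked 2 by its change in NMuMG, 6 in each of the other lines, and 2 by its mean change. These values chose the gene, so they carry no further weight.

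**Figure D1:**
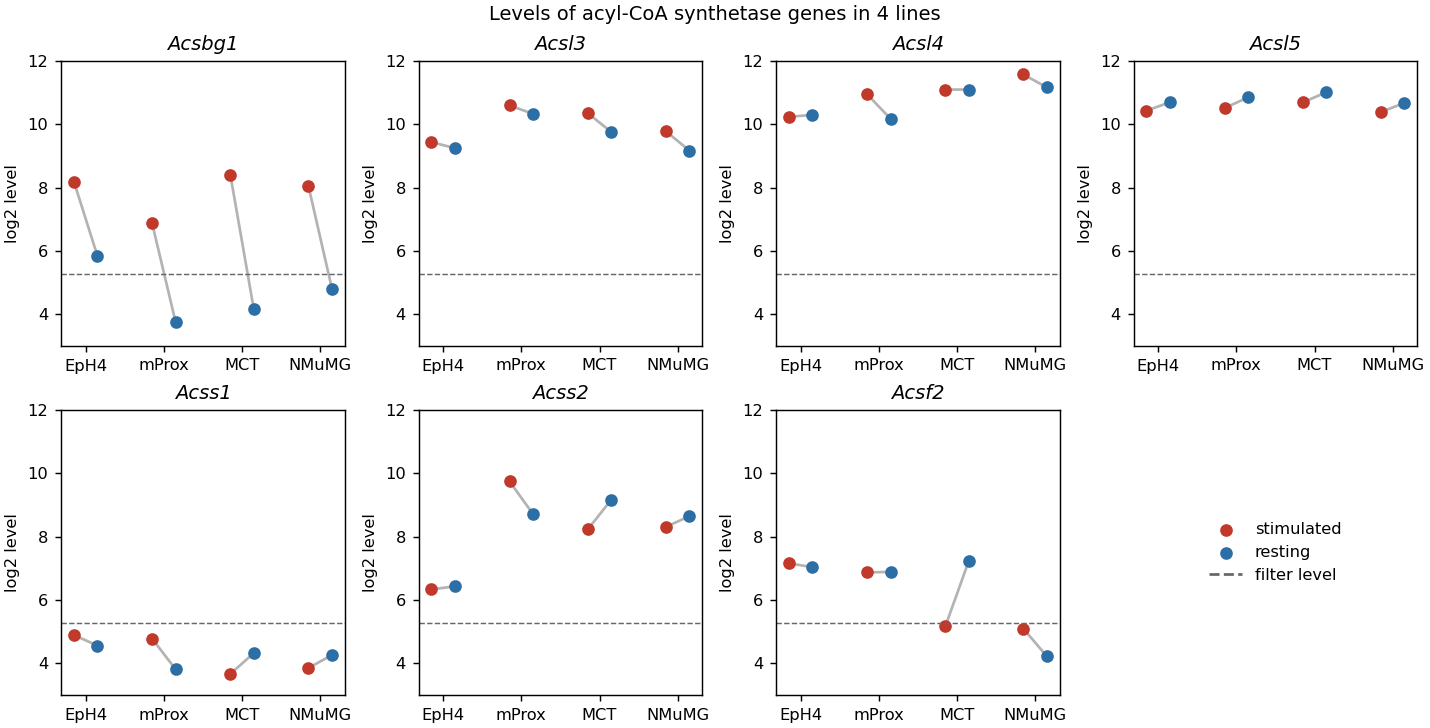
Log2 level (vertical axis) of the 7 measured genes, 1 panel a gene, in stimulated (red) and resting (blue) cells of each line, with the filter level of 5.27 dashed. Every red point of Acsbg1 lies above every blue one, while the red and blue points of the other genes overlap in range.

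Among the long-chain enzymes, Acsl3, which sits on the endoplasmic reticulum and on growing lipid droplets, was higher in each line by a smaller amount. Its stimulated log2 levels were 9.44 for EpH4, 10.60 for mProx, 10.36 for MCT and 9.78 for NMuMG, and its resting levels 9.25 for EpH4, 10.33 for mProx, 9.76 for MCT and 9.17 for NMuMG. The ranges overlap, and the lines differed more from each other than stimulated from resting cells did. The changes were 0.19, 0.27, 0.60 and 0.61 in EpH4, mProx, MCT and NMuMG, with a mean of 0.42 ± 0.22 (SD, n = 4) or 1.33-fold. With arrays scaled to one trimmed mean the EpH4 change was 0.18. As deposited, with no scaling, it was -0.10, where the median of all genes in EpH4 was -0.28. A second Acsl3 probe set gave changes of -0.06, 0.48, 0.62 and 1.38 in the same lines, and the third, dim on 4 of the 8 arrays, by 0.91, -0.14, 1.21 and 0.41. The 3 probe sets had the same sign in 2 of the 4 lines, MCT and NMuMG.

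Acsl5, which is found on mitochondria and endoplasmic reticulum, was lower after stimulation in each line. Its only probe set gave 10.43 for EpH4, 10.51 for mProx, 10.69 for MCT and 10.39 for NMuMG after stimulation, and 10.70 for EpH4, 10.86 for mProx, 11.01 for MCT and 10.68 for NMuMG at rest. The highest stimulated array, MCT, lay just above the lowest resting one, NMuMG. The 4 changes were -0.27, -0.34, -0.32 and -0.29, a mean of -0.30 ± 0.033 (SD, n = 4), or 0.81-fold. An SD between lines this small was found in 0.467% of the tested genes, a feature singled out after the values were seen. With arrays scaled to one trimmed mean the SD was 0.036, and 0.419% of genes had one as small. As deposited, with no scaling, the changes were -0.53, -0.44, -0.54 and 0.07, and 22.7% of genes had an SD as small. The medians of all genes were then -0.28, -0.11, -0.25 and 0.35 in the same lines.

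Acsl4, which prefers arachidonic acid and is needed for the lipid peroxidation death called ferroptosis, had no common direction. The stimulated log2 levels were 10.24 for EpH4, 10.95 for mProx, 11.10 for MCT and 11.58 for NMuMG, against 10.30 for EpH4, 10.18 for mProx, 11.10 for MCT and 11.17 for NMuMG at rest. The changes were -0.06, 0.77, 0.00 and 0.41, a mean of 0.28 ± 0.39 (SD, n = 4). Its 3 probe sets agreed in sign in mProx alone, where they were 0.77, 0.57 and 0.67.

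Across the 6 tested members, 2 were higher in each of the 4 lines (Acsbg1 and Acsl3), beside 10.3% of all tested genes, and 1 was lower in each (Acsl5), beside 9.25%. The median of their mean changes was 0.098, beside 0.007 over all tested genes, whose quartiles were -0.125 and 0.150. In the limma fit over the 4 lines 0 of 6 members had an adjusted p under 0.05, as did 0 of all tested genes (0%). At an unadjusted p under 0.05 there were 3 members and 11.6% of all genes. Over the 3 lines without EpH4, 1 of 6 members, Acsbg1, passed the adjusted threshold, beside 16 of the 12640 genes (0.127%). At an unadjusted p under 0.05 there were 4 members, beside 12.6%. Since this contrast chose the members, nothing is read from these counts.

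**Figure D2:**
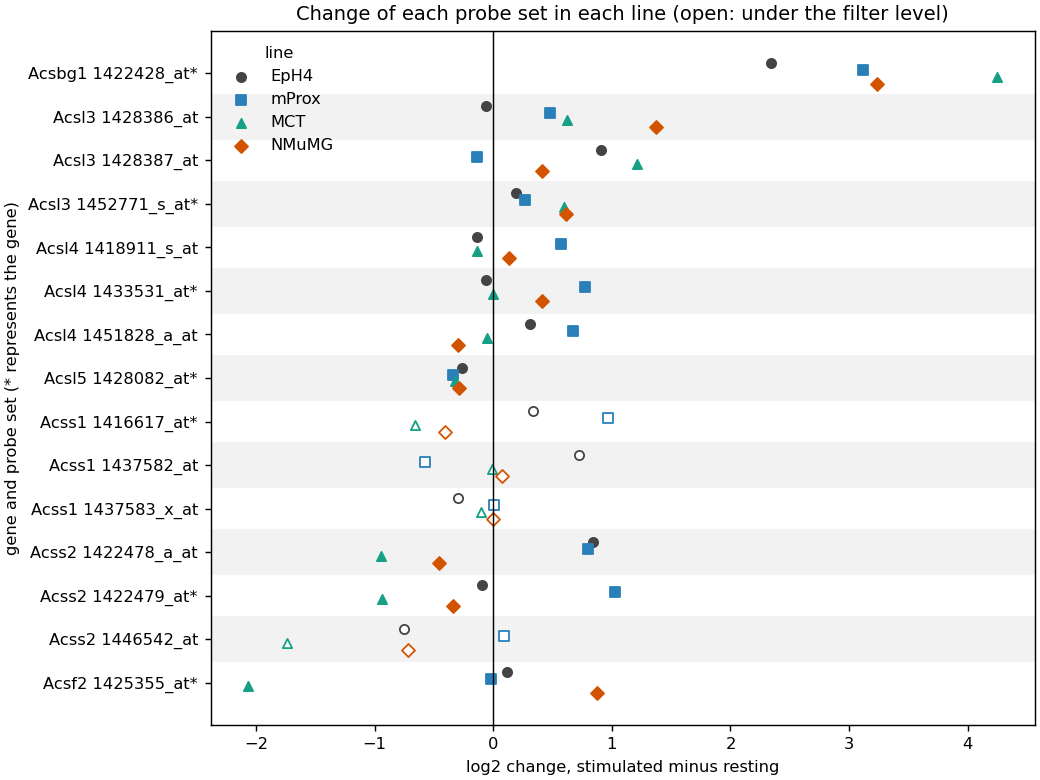
Change (stimulated minus resting, log2) of each of the 15 member probe sets in each of the 4 lines, with open symbols for probe sets whose mean level was under the filter level and an asterisk on the probe set that represents the gene. The Acsbg1 probe set lies at 2.34 to 4.25 in all lines, and the probe sets of Acss2 and Acsl3 spread across 0.

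Of the acetate-activating enzymes, only Acss2 passed the filter, and it went opposite ways in the kidney lines. Acss2, which makes acetyl-CoA from acetate in cytosol and nucleus, had stimulated log2 levels of 6.34 for EpH4, 9.75 for mProx, 8.23 for MCT and 8.31 for NMuMG, and resting levels of 6.43 for EpH4, 8.71 for mProx, 9.17 for MCT and 8.65 for NMuMG. It was 2.04-fold higher in stimulated mProx and 0.523-fold in stimulated MCT, with changes of -0.10 for EpH4, 1.03 for mProx, -0.94 for MCT and -0.34 for NMuMG. The mean was -0.08 ± 0.82 (SD, n = 4), 0.20 without MCT and -0.46 without mProx. A second probe set that reached the filter level gave 0.84, 0.80, -0.94 and -0.45 in the same order, so that both agreed on the mProx increase and the MCT decrease and differed in EpH4. Acss1, the mitochondrial acetate enzyme, was dim on all 8 arrays with each of its 3 probe sets. The signals of its representing probe set lay between 1.8 and 17.6, and no direction is read from them.

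Acsf2 was measured above the filter level in both EpH4 and both mProx arrays and in resting MCT. Its stimulated log2 levels were 7.16 for EpH4, 6.87 for mProx, 5.16 for MCT and 5.09 for NMuMG, and its resting levels 7.04 for EpH4, 6.89 for mProx, 7.23 for MCT and 4.22 for NMuMG. The signal of 21.6 in stimulated MCT stood against 143.9 in resting MCT, a change of -2.07, or -1.97 with dim levels set to the filter level. The change was 0.12 in EpH4 and -0.02 in mProx. In NMuMG both arrays were dim, so its change of 0.87 becomes 0 when dim levels are set to the filter level. The mean was -0.27 ± 1.26 (SD, n = 4), 0.32 without MCT, -0.66 without NMuMG and -0.47 with dim levels set to the filter level.

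**Figure D3:**
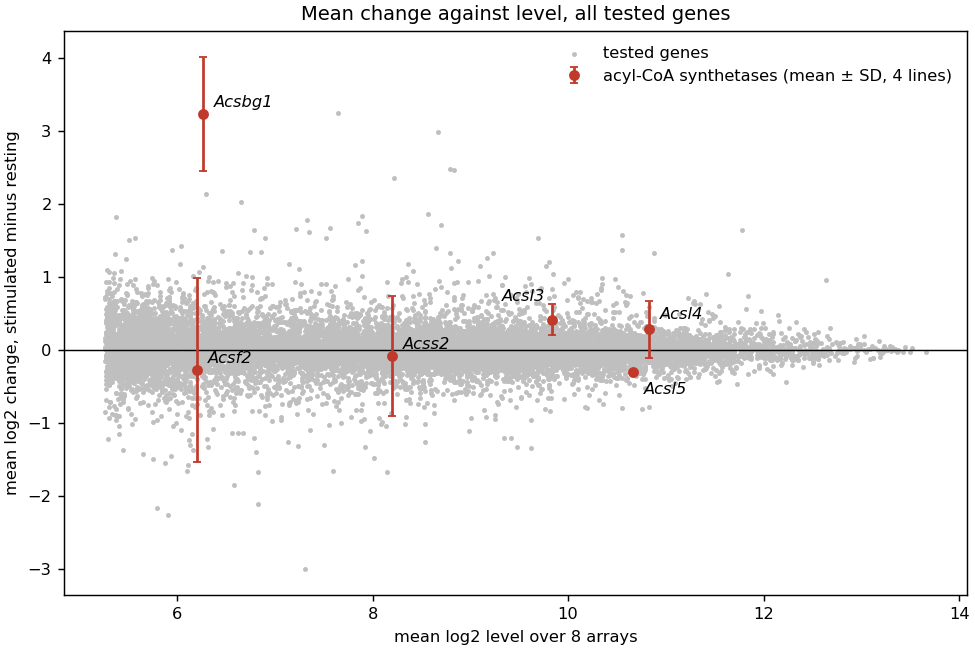
Mean change over the 4 lines (stimulated minus resting, log2, vertical axis) against the mean log2 level of each tested gene (grey) and of the 6 tested members (red, mean with the SD of 4 lines as bars). Acsbg1 stands at 3.24, and the mean changes of the other members lie between -0.30 and 0.42.

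Whether the response of EpH4, the line labelled resistant, differed from that of the other 3 lines was tested as a difference in the fit over all 12640 genes. None of the 6 members passed (0% of all genes did), and 0 had an unadjusted p under 0.05, beside 3.43% of all genes. The change of Acsbg1 was 2.34 in EpH4 and averaged 3.53 ± 0.62 (SD, n = 3) in the other lines, a difference of -1.19 (95% CI -2.56 to 0.18, limma adjusted p = 1.00). This difference was -2.07 with an offset of 1, -0.38 with an offset of 50 and -0.17 with dim levels set to the filter level. The change was smallest in EpH4 for Acsbg1, Acsl3 and Acsl4, beside 23.8% of all tested genes, but with dim levels set to the filter level Acsbg1 had its smallest change, 1.61, in mProx. The difference for Acsl3 was -0.30 (95% CI -0.91 to 0.31) and for Acsl4 -0.46 (95% CI -1.18 to 0.26). Those values are of the representing probe sets. The other probe sets gave differences of -0.89 and 0.42 for Acsl3 and of -0.33 and 0.21 for Acsl4, so the sign differed between probe sets. With 1 array pair for EpH4, these intervals assume that EpH4 varies like the other lines, and they do not show that the lines act alike.

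The difference between the kidney and the mammary response was tested in the same way. Again 0 of 6 members passed (0% of all genes), and 0 had an unadjusted p under 0.05, beside 5.91% of all genes. The change of Acsbg1 averaged 3.68 in the kidney lines and 2.79 in the mammary lines, a difference of 0.89 (95% CI -0.36 to 2.14, limma adjusted p = 0.932). It ranged from 0.33 without MCT to 1.46 without mProx when each line was left out. It was 1.87 with an offset of 1, 0.18 with an offset of 50 and -0.18 with dim levels set to the filter level, so it has no settled direction. The change of Acsf2 averaged -1.04 in the kidney lines and 0.50 in the mammary lines, a difference of -1.54 (95% CI -3.15 to 0.08, limma adjusted p = 0.872). It was -0.51 without MCT, -2.56 without mProx and -1.05 with dim levels set to the filter level. Both kidney lines lay below 0 and both mammary lines above it for Acsf2 alone among the members, beside 6.27% of all genes. However, the mProx change was only -0.02, and NMuMG is at 0 when dim levels are set to the filter level. As deposited, with no scaling, the EpH4 change of Acsf2 was -0.17, where the median of all genes in EpH4 was -0.28.

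At rest, kidney and mammary lines were set side by side with 2 arrays each, as a description, since resting levels were in view when the members were chosen. In the limma fit 0 of 6 members passed the adjusted threshold (0% of all genes did), and Acsbg1 alone had an unadjusted p under 0.05, beside 7.32% of all genes. Resting Acsbg1 averaged 3.96 in the kidney lines and 5.33 in the mammary lines, a difference of -1.36, and both kidney lines were below both mammary lines, as for 16.1% of all genes. All resting arrays but that of EpH4 are dim for Acsbg1, and the difference was -0.84 without EpH4 and -0.29 with dim levels set to the filter level.

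Resting Acsl3 averaged 10.04 in kidney and 9.21 in mammary lines, a difference of 0.84, or 0.55 without mProx. Resting Acss2 averaged 8.94 in kidney and 7.54 in mammary lines, a difference of 1.40, or 0.29 without EpH4, whose level of 6.43 is the lowest. Both kidney lines lay above both mammary lines for Acsl3, Acsl5 and Acss2, 3 of the 6, beside 20.8% of all genes. The second Acss2 probe set did not share this, with 9.06 in NMuMG above 8.91 in mProx and 8.62 in MCT. Nor did the Acss2 probe set under the filter level, which averaged 5.41 in kidney and 5.81 in mammary lines. The second Acsl3 probe set shared it only narrowly, with 8.09 in MCT and 8.08 in EpH4. The third Acsl3 probe set did not, with 4.69 in MCT and 4.86 in NMuMG, both dim.

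The genes whose levels most resembled those of Acsbg1 over the 8 arrays were Tnnt2, a troponin of heart muscle (Pearson r = 0.947), Ctsw, a cysteine protease of the cathepsin family (0.932), Fam222a (0.927), 9530057J20Rik (0.921) and Ercc1, a DNA repair endonuclease subunit (0.915). The arrays are paired by line, and no p is attached. By distance between the 4 changes, the nearest were Tnnt2 (1.02), Ctsw (1.69), Ctla2a (2.34), Ccbe1 (2.83) and Il18rap (2.89). Tnnt2 had changes of 1.57 for EpH4, 3.57 for mProx, 3.95 for MCT and 2.85 for NMuMG, so the change was smallest in EpH4 and largest in MCT, as for Acsbg1 before dim levels are set to the filter level. Tnnt2 was picked by its likeness to Acsbg1 in these same changes, so the shared order adds nothing to that choice. Ctsw had changes of 2.00, 3.25, 5.54 and 2.20 in the same lines. At rest Ctsw was dim in 2 lines, Il18rap in 2 and Ccbe1 in 1. The exact size of their changes and distances thus depends on the offset, as for Acsbg1. The remaining genes of the correlation list had smaller mean changes, 0.93 for Fam222a, 0.47 for 9530057J20Rik and 0.72 for Ercc1. Of these, 9530057J20Rik was dim at rest in 2 lines and Fam222a in 1, so their values depend on the offset too.

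Other acyl-CoA synthetases and the genes around them were read from lists of the pathway. Of 17 other synthetases listed, 14 had a probe set and 6 were tested, and none of those 6 had the same sign in each line. Slc27a1, a fatty acid transport protein with synthetase activity, had the largest mean change among them, 0.31 ± 0.70 (SD, n = 4). Acsbg3 was tested too but is outside the list. Its changes were 0.33 for EpH4, -0.78 for mProx, 0.48 for MCT and 0.14 for NMuMG, a mean of 0.04. Over all 13 lists, 216 of 233 genes had a probe set and 177 were tested. None passed the adjusted threshold in the 4 lines or in the 3 lines, and 21 (11.9%) had an unadjusted p under 0.05 over 4 lines, beside 11.6% of all tested genes. Of the 177, 12 were higher and 20 lower in each line, 18.1% in all, beside 19.6% of all tested genes that went the same way in each line. The median change was -0.029, beside 0.007 over all tested genes.

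**Figure D4:**
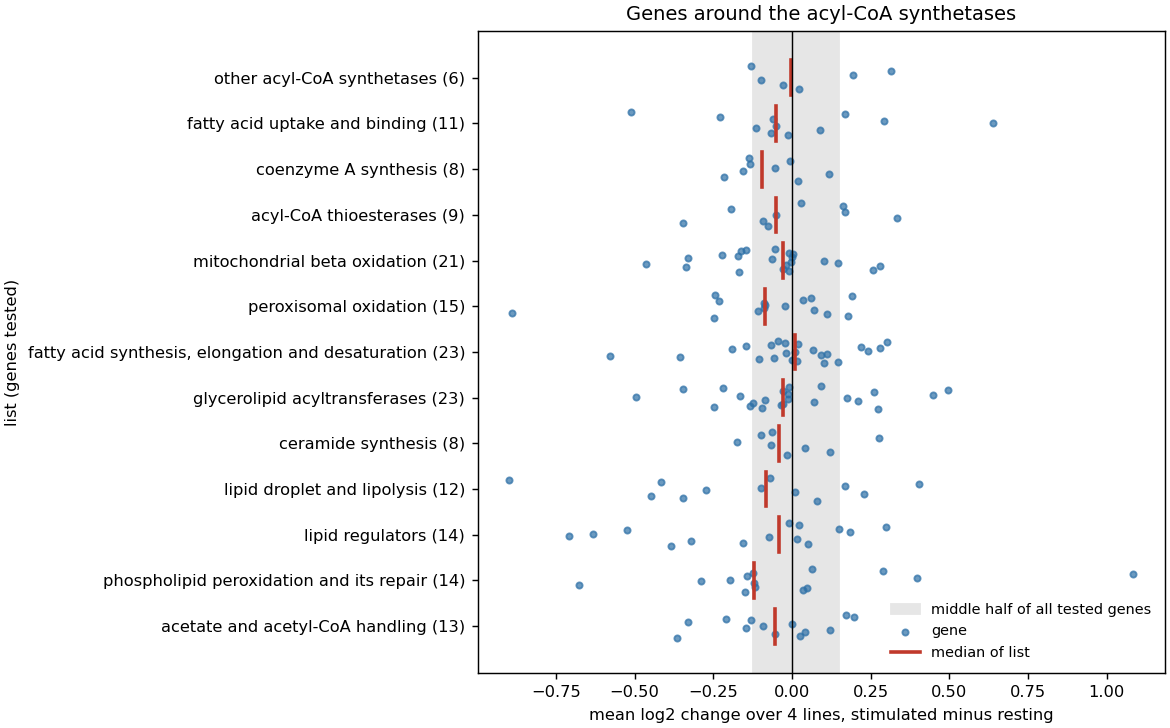
Mean change over the 4 lines (stimulated minus resting, log2, horizontal axis) of each tested gene of the 13 pathway lists, with each list's median in red and the range between the quartiles of all tested genes as a grey band. The list medians lie between -0.120 and 0.008.

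Among the tested list genes with the same sign in each line, Ptgs2 had the largest mean change. Ptgs2, the inducible cyclooxygenase that turns arachidonic acid into prostaglandins, had changes of 0.27 for EpH4, 1.30 for mProx, 1.34 for MCT and 1.42 for NMuMG, a mean of 1.08 ± 0.54 (SD, n = 4, limma adjusted p = 0.135). The list of lipid regulators had 2 of 14 tested genes higher and 3 lower in each line, with a median of -0.041. Among all tested genes, 10.3% were higher and 9.25% lower in each line. Ppargc1a, a coactivator of mitochondrial oxidation, had a mean of -0.71 ± 0.43 (adjusted p = 0.290), and its relative Ppargc1b -0.63 ± 0.42 (adjusted p = 0.303). Scap, the escort of the SREBP factors, averaged 0.30 and Rxra, a nuclear receptor partner, 0.15, and neither passed.

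Of the 21 tested genes of mitochondrial beta oxidation, 4 were lower and 1 was higher in each line, with a list median of -0.028. Of all tested genes, 9.25% were lower and 10.3% higher in each line, the shares to set beside this and the following lists. Cpt1a, which passes long-chain acyl groups into mitochondria, averaged -0.46 ± 0.39 (adjusted p = 0.306). Eci1, an enoyl-CoA isomerase, averaged -0.33 ± 0.11 (adjusted p = 0.267) and Acads, the short-chain acyl-CoA dehydrogenase, 0.28 ± 0.066 (adjusted p = 0.368). In the list for phospholipid peroxidation and its repair, 4 of 14 were lower and 1 was higher in each line, with a median of -0.120. Gpx4, which reduces lipid hydroperoxides, averaged -0.29 ± 0.13 (adjusted p = 0.212). Gclc, a subunit of the enzyme that starts glutathione synthesis, averaged -0.68 ± 0.68 (adjusted p = 0.320), with -1.64 in NMuMG and -0.11 in mProx.

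For fatty acid uptake and binding, 1 of 11 genes was higher and 1 lower in each line. Fabp3, a cytosolic fatty acid carrier, averaged 0.64 ± 0.48 (adjusted p = 0.372) and Vldlr, a lipoprotein receptor, -0.51 ± 0.35 (adjusted p = 0.306). In the lipid droplet and lipolysis list, 2 of 12 were lower in each line, among them Plin3, a droplet coat protein, with -0.42 ± 0.21 (adjusted p = 0.216). In the 8 genes of coenzyme A synthesis, 3 were lower and 0 higher in each line, with a median of -0.094. In the list for fatty acid synthesis, elongation and desaturation, 2 of 23 were higher and 1 was lower, with a median of 0.008. Hsd17b12, a step of fatty acid elongation, averaged 0.28 ± 0.12 (adjusted p = 0.243), and the elongase Elovl7 -0.58 ± 0.62 (adjusted p = 0.372).

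The labels call all lines epithelial. Of 11 epithelial markers, EpH4 had 10 above the filter level, NMuMG 7, MCT 8 and mProx 5, with the same numbers in stimulated and resting cells. The summed signal of the list ran from 3337 to 41235 on stimulated arrays and from 1465 to 35597 on resting arrays. E-cadherin (Cdh1) was dim in both kidney lines, with log2 levels of 3.57 in stimulated and 3.53 in resting mProx and of 4.47 in stimulated and 3.87 in resting MCT. Of 9 mammary luminal markers, 4 to 7 were above the filter level on each array, in kidney lines too, and Elf5 was dim on all. Of 9 proximal tubule markers, 5 to 9 were above it on each array, in mammary lines too. Their summed signal ran from 353 to 4774 on stimulated and from 387 to 14250 on resting arrays. Resting Cdh16 was 12.23 in mProx and 10.80 in MCT, against 4.24 in EpH4 and 5.33 in NMuMG. Resting Pax8 was 10.90, 9.66, 5.78 and 5.25 in the same order. Most other markers of this list did not follow. Resting Hnf4a was 5.29, 5.52, 6.13 and 6.23 and resting Lrp2 5.96, 5.99, 6.09 and 6.57, both lower in the kidney lines. Resting Aqp1 was 12.84, 5.07, 5.87 and 5.57, high in mProx alone. Cubn, Slc34a1 and Slc22a6 did not separate kidney from mammary lines at rest. Slc5a2 did so narrowly, with 6.37, 6.24, 6.21 and 5.48. Since Acsbg1 is also known from other tissues, markers of other cell types were looked at. Of 6 astrocyte markers, 2 to 3 were above the filter level on each array, among them Gfap and Aldh1l1 on all 8, while Slc1a3 and Gjb6 were dim on all. Of 6 steroidogenic markers, 1 to 3 were above it, with Star on all 8 arrays, while Cyp11a1 and Cyp17a1 were dim on all. The astrocyte sums were 152 to 215 on stimulated and 134 to 207 on resting arrays, and the steroidogenic sums 197 to 282 on stimulated and 180 to 260 on resting arrays.

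For the remaining cell types, 2 to 3 of 6 adipocyte markers were above the filter level on each array, with Retn and Lipe on all 8 and Adipoq, Cidec and Lep dim on all. Of 7 leukocyte markers, 4 to 6 were above it, with Cd68, Csf1r, Adgre1 and Laptm5 on all 8 arrays and Ptprc dim on all. Their summed signal was 411 to 535 on stimulated and 438 to 2129 on resting arrays. Of 6 endothelial markers, 0 to 2 were above it, and Pecam1, Tek, Tie1 and Vwf were dim on all. Of 9 fibroblast markers, 2 to 6 were above it, with sums of 278 to 698 on stimulated and 225 to 2023 on resting arrays. In mProx, Dcn was 10.56 at rest and 7.53 after stimulation, and Csf1r of the leukocyte list 10.91 and 7.63. The fibroblast marker Col1a1 went the other way in mProx, with 4.68 at rest and 6.50 after stimulation. The part of other cell types in the Acsbg1 values was not tested.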

How the data were processed

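Total RNA of 8 samples was biotin-labelled and hybridised to Affymetrix whole-genome mouse arrays, per the labels. The deposited values are intensities on a linear scale, 1 per probe set and array, made with MAS5 per the submitters' processing notes, with version, scaling target and annotation build not given in the sources used here. Median signals ran from 41.5 to 59.7. Detection calls were not used here.

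From the deposited intensities, 64 control probe sets were left out, log2 of the intensity plus 10.6 (the 25th percentile of positive signals) was taken, and the arrays were quantile-normalized, as their median log2 values differed by 0.43. This removes any overall shift between arrays and understates changes of dim genes. Symbols came from the platform annotation, and 34741 of the 34945 probe sets with a single symbol matched the GRCm38.p6 gene table. The tests used limma 3.58.1 under R 4.3.3 (lmFit, eBayes with an intensity trend, Benjamini-Hochberg threshold 0.05), after tests on simulated data. The line was the block, except in the comparison of resting kidney with resting mammary lines, which holds no pairs and had no block. The 2 arrays of each line come from the same line and deviated together from their group means (correlations across genes of 0.906, 0.828, 0.813 and 0.876). Each p-value rests on the spread between these lines, which may be technical in part. In the fit, each gene's spread was drawn towards the trend over all tested genes. The p-values and intervals thus do not rest on a gene's own spread alone.

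The members and lists were chosen with earlier results of these data known. Named genes are the members, up to 2 genes each way per list with the largest mean change among those changed alike in each line, and the 5 genes most like Acsbg1 by each measure; the text gives some of them. The alternatives covered scaling, offset, filter, probe set rule, trend, block and leaving out each line.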

Additional observations from a re-analysis of the deposited data

Results flagged for a closer look

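Of 21 groups of 4 values looked at among the members, 1 held a value far from the rest, and chance alone gives about 1 in 20 such groups. It was the resting log2 level of Acsf2 in NMuMG, 4.22, where the other 3 lines lay between 6.89 and 7.23. The gap took up 0.887 of the whole range, above Dixon's 95% critical value for 4 values. The NMuMG level is dim, so it says only that Acsf2 was under the filter level there, as it was in stimulated NMuMG at 5.09.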

How the results depend on the processing

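Among the 6 tested members, the count with an adjusted p under 0.05 over 4 lines was 1 (Acsbg1) in place of 0 with values as deposited, with arrays scaled to one trimmed mean and with an offset of 50, and it ranged from 0 to 1 when each line was left out, with 1 only without EpH4. Over 3 lines it was 0 in place of 1 with no filter on dim genes, with the 60th percentile filter (where Acsbg1 is no longer tested), with no intensity trend and with no replicate block. Fitting with the block was the main choice because both arrays of a pair come from 1 line. Among pathway genes the count over 4 lines was 3 with values as deposited (Gclc, Plin4 and Ptgs2). Over 3 lines it was 3 as deposited (Acaa1b, Plin4 and Ptgs2) and 1 (Ptgs2) with one trimmed mean, with an offset of 1 and with the 60th percentile filter. As deposited, 236 of all genes passed over 4 lines and 211 over 3 lines, in place of 0 and 16. The member counts for the 3 other contrasts were 0 in every setting run, and without EpH4 its difference cannot be computed. Of 70 alternative values of member changes, 67 stayed within 1 SD of the main value and 3 moved further. This count is no measure of robustness. Leaving out 1 of 4 lines cannot move a mean by 1 SD of the 4 changes. Some settings also leave a gene's value as it was, as for genes with a single probe set or no dim level. Among the 67, 6 changed sign or became 0, 4 of them for Acss1, 1 for Acss2 and 1 for Acsf2. Acsbg1 ranged from 2.06 to 4.11 and Acsl5 from -0.36 to -0.29. Setting dim levels to the filter level was chosen after seeing the data. Signals near the filter level limit Acsf2, Acss1 and resting Acsbg1.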

Other observations

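One probe set shared by Gssos2 and Acss2, and therefore outside the set, gave changes of 0.08 for EpH4, -0.01 for mProx, -0.12 for MCT and 0.64 for NMuMG, unlike the representing Acss2 probe set, which gave changes of -0.10, 1.03, -0.94 and -0.34 in the same lines. The Acss2 probe set whose mean level did not reach the filter level gave changes of -0.75, 0.09, -1.74 and -0.72. The Acsl1 gene has 2 RefSeq starts in the promoter table, with 20 CpG before the first and 2 before the second.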
